A study of Gallus gallus with 6 samples.

Results

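The contractile apparatus of smooth muscle was followed through 10 genes, with the platform symbols TAGLN, TPM1, DES, ACTA1, ACTA2, MYH11, CNN1, LMOD1, SYNPO2 and MYLK, in arrays of the chick ductus arteriosus (DA) and the descending aorta. A gene entered through the probe sets that carried its symbol in the annotation of the array, out of 20804 probe sets in all. In this way 6 of the 10 genes had a probe set of their own. The probe set of *des* carries no symbol in that annotation and was named through the published tables, which rank ratios of the DA to the aorta on these same arrays. The difference of *des* from the aorta is therefore given as a description, and the main counts are given with and without it. *acta2* was found only on a probe set that also carries *actg2*, and no probe set was named *cnn1* or *lmod1*. The values below rest on 7 genes and on the shared *acta2* and *actg2* probe set.

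The tissue came from Hypeco Nera chick embryos, with no transgene or treatment, at internal pipping (IP), when the embryo has broken into the air cell and starts to breathe. The long right-sided DA was cut into the proximal DA, next to the pulmonary artery, and the distal DA, which joins the descending aorta, and that aorta was taken for comparison. Each tissue had 2 arrays, 6 in all, and each RNA sample was pooled from 10 embryos. It is not stated whether the 2 arrays of a tissue were separate pools, so the spread behind a p-value is that between arrays and may be technical.

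Smooth muscle contracts when myosin filaments pull on actin filaments that are held by dense bodies and by dense plaques at the membrane. Calcium starts this by way of calmodulin and the myosin light chain kinase, which phosphorylates the regulatory light chain of myosin, and a myosin phosphatase reverses it. In vessels that close after birth or hatching, such as the proximal DA, the muscle of the media carries the constriction. The wall of the embryonic aorta is built around elastic layers. From histology the paper describes the proximal DA as muscular, and the distal DA as elastic and aorta-like. In its clustering of these arrays the parts of the DA lay closer to each other than to the aorta. In the paper's account oxygen constricts only the proximal DA, and the distal DA does not close with hatching.

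Values are log2 signals after RMA, the standard normalization of such arrays, and a difference of 1 is a change of 2-fold. The array medians lay between 6.61 and 6.66 and the upper quartiles between 7.75 and 7.82, so a value near 12 is bright. Probe sets differ in affinity, so the order of genes by level is not read. Differences were tested by limma across all 20804 probe sets, with a call at a Benjamini-Hochberg adjusted p under 0.05. Smooth muscle in the samples was visible in *myh11*, the myosin heavy chain that defines smooth muscle. Both of its probe sets were at 11.02 or above on all 6 arrays. Among the further markers, the shared *acta2* and *actg2* probe set was at 11.55 or above. *tagln* was near the upper quartile in the aorta (7.66 and 7.91), and *cnn1* was not measured.

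*tagln*, *tpm1* and *acta1*, the thin filament members with a probe set of their own, were called higher for the proximal and the distal DA when set against the aorta. *tagln* encodes transgelin, an actin-binding protein of smooth muscle. It had 11.21 and 11.42 on the proximal DA arrays, 10.08 and 10.49 on those of the distal DA, and 7.66 and 7.91 on the aorta arrays. The 3 tissues did not overlap, and the aorta arrays lay near the upper quartile of their array. The difference from the aorta was 3.53 (SE 0.19, 11.6-fold, limma adjusted p = 0.000235) for the proximal DA and 2.5 (SE 0.19, 5.66-fold, adjusted p = 0.00248) for the distal DA.

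*tpm1*, the alpha-tropomyosin that lies along the actin filament, had 11.60 and 11.65 on the proximal DA arrays, 11.11 and 10.99 on those of the distal DA, and 9.02 and 9.06 on the aorta arrays. Replicates lay within 0.12 of each other, and the tissues did not overlap. Relative to the aorta it was 6.0-fold higher in the proximal DA (log2 difference 2.59, SE 0.14, limma adjusted p = 0.000235) and 4.03-fold higher in the distal DA (2.01, SE 0.14, adjusted p = 0.00186).

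*acta1*, named for the alpha-actin of skeletal muscle, had 12.88 and 13.09 on the proximal DA arrays, 12.36 on both of the distal DA, and 9.99 and 9.67 on the aorta arrays. The difference from the aorta was 3.16 (SE 0.16, 8.91-fold, limma adjusted p = 0.000235) for the proximal DA and 2.53 (SE 0.16, 5.78-fold, adjusted p = 0.00186) for the distal DA. The probe set shared by *acta2* and *actg2*, the alpha- and gamma-actins of smooth muscle, had 13.08 and 13.16 on the proximal DA arrays, 12.90 and 13.10 on those of the distal DA, and 11.55 and 11.89 on the aorta arrays. It rose by 1.4 (SE 0.17, 2.64-fold, adjusted p = 0.00413) for the proximal DA and by 1.28 (SE 0.17, 2.43-fold, adjusted p = 0.0152) for the distal DA. The call in the distal DA was lost without distal DA replicate 1 (adjusted p = 0.0962) or distal DA replicate 2 (adjusted p = 0.129). The muscle actins are nearly identical in sequence, and whether these probe sets separate them was not tested. The probe set of *actc1*, the alpha-actin of cardiac muscle, had 4.52 to 5.40 on the 6 arrays.

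**Figure D1:**
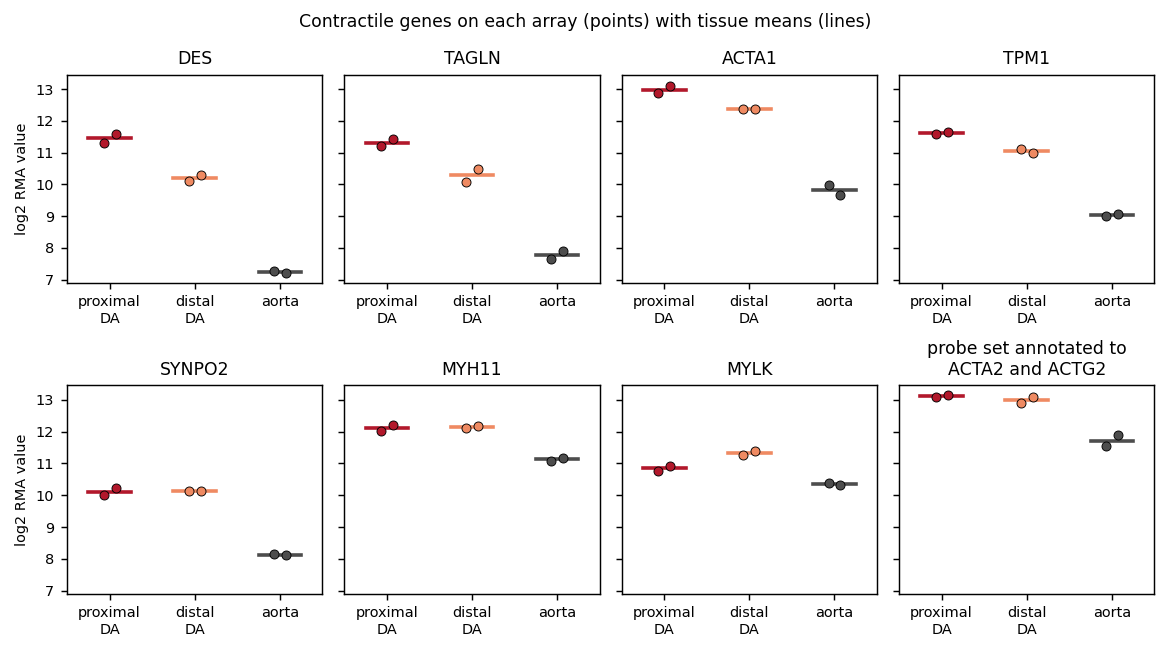
Log2 RMA value (vertical axis) of the 7 contractile genes with a probe set of their own and of the shared *acta2* and *actg2* probe set, by tissue. Each point is 1 array and each bar is the mean of the 2 arrays of a tissue. All DA points of every panel lie above the aorta points, and *mylk* is the only panel in which the distal DA lies highest without overlap.

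*des* encodes desmin, the intermediate filament protein of muscle that ties dense bodies together. It had 11.31 and 11.59 on the proximal DA arrays, 10.11 and 10.30 on those of the distal DA, and 7.26 and 7.20 on the aorta arrays. The difference from the aorta was 4.22 (95% interval 3.85 to 4.59, 18.6-fold) for the proximal DA and 2.98 (2.60 to 3.35, 7.86-fold) for the distal DA. These differences ranked 4 and 6 from the highest of all probe sets. Since *des* was named through published rankings of DA to aorta ratios on these same arrays, its high ranks follow from that choice. Those published ratios are far smaller than the folds given here and are not the same measure. *synpo2*, which encodes an actin-bundling protein of the dense body and Z-disc, had 10.01 and 10.22 on the proximal DA arrays, 10.14 and 10.12 on those of the distal DA, and 8.15 and 8.11 on the aorta arrays. The arrays of the proximal and the distal DA overlapped, and both lay above the aorta. Relative to the aorta it was 3.96-fold higher in the proximal DA (log2 difference 1.99, SE 0.14, limma adjusted p = 0.000627) and 4.0-fold higher in the distal DA (2.0, SE 0.14, adjusted p = 0.00195).

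*myh11*, the heavy chain of the thick filament, had 12.03 and 12.20 on the proximal DA arrays, 12.11 and 12.17 on those of the distal DA, and 11.07 and 11.18 on the aorta arrays. Its difference from the aorta was 0.99 (SE 0.14, 1.99-fold, limma adjusted p = 0.00840) for the proximal DA and 1.02 (SE 0.14, 2.02-fold, adjusted p = 0.0189) for the distal DA. A second probe set of *myh11*, with 12.02 and 12.17 on the proximal DA arrays, 12.02 and 12.23 on those of the distal DA, and 11.02 and 11.12 on the aorta arrays, differed from the aorta by 1.03 in the proximal DA (adjusted p = 0.00888) and by 1.06 in the distal DA (adjusted p = 0.0193). *mylk*, the kinase that switches myosin on, had 10.77 and 10.92 on the proximal DA arrays, 11.26 and 11.39 on those of the distal DA, and 10.40 and 10.33 on the aorta arrays. Set against the aorta, it was 1.95-fold higher in the distal DA (0.96, SE 0.14, adjusted p = 0.0228). In the proximal DA the difference was 0.48 (95% interval 0.15 to 0.81) and did not pass (unadjusted p = 0.0107, adjusted p = 0.113).

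The calls of *myh11* and *mylk* were lost in some fits with 1 array left out, which have fewer arrays to estimate the spread. *myh11* was not called in the proximal DA without proximal DA replicate 2 (adjusted p = 0.0597). In the distal DA both genes lost the call without aorta replicate 1, aorta replicate 2, distal DA replicate 1 or distal DA replicate 2, with limma adjusted p between 0.0565 and 0.161 for *myh11* and between 0.0633 and 0.196 for *mylk*, while the log2 differences stayed between 0.96 and 1.07 for *myh11* and between 0.90 and 1.03 for *mylk*.

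Against the aorta, 6 of the 7 genes were called higher in the proximal DA and 0 lower, and 5 of 6 without *des*. Of all probe sets, 3.33% were called higher and 2.34% lower in this comparison. At an unadjusted p under 0.05 the 7 genes gave 7 higher and 0 lower, and 6 and 0 without *des*. The shares of all probe sets were 8.39% and 9.75%. The median difference was 2.59 over the 7 genes, 2.29 without *des* and -0.015 over all probe sets. In the distal DA 7 of 7 genes were called higher and 0 lower, and 6 of 6 without *des*. Of all probe sets, 0.952% were called higher there and 0.644% lower. Unadjusted, there were 7 higher and 0 lower, and 6 and 0 without *des*, against 5.44% and 5.34% of all probe sets. For all 7 genes, and so for the 6 without *des*, both arrays of each part of the DA lay above both aorta arrays. They did so for 19% of all probe sets with the proximal DA and for 19.9% with the distal DA. Both DA arrays lay below both aorta arrays for 23.1% of all probe sets with the proximal DA and for 19.8% with the distal DA. The median was 2.01 over the 7 genes, 2.0 without *des* and *tagln* and -0.005 over all probe sets. Without *tagln* as well, which the published tables also hold, 4 of 5 genes were called higher for the proximal DA and 5 of 5 for the distal DA. Both comparisons use the same 2 aorta arrays. In bulk tissue, fewer cells of a type and less RNA per cell cannot be told apart.

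**Figure D2:**
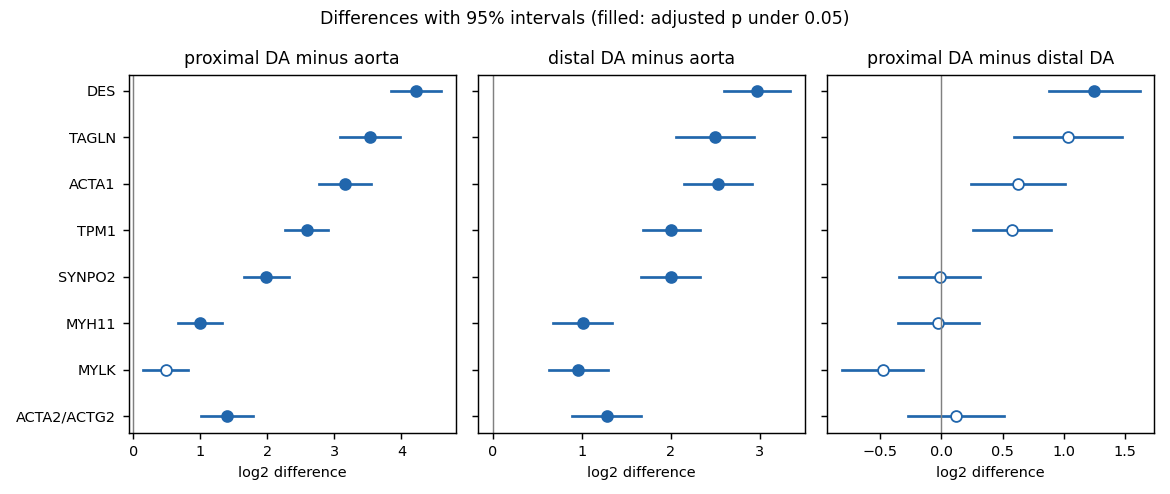
Log2 difference (horizontal axis) of each gene in the 3 comparisons, with 95% intervals from limma; filled points have an adjusted p under 0.05. The differences from the aorta run between 0.48 for *mylk* and 4.22 for *des* in the proximal DA, and only *des* is filled between the parts of the DA.

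Between the 2 parts of the DA 1 of the 7 genes was called, and 0 of 6 without *des*, the gene named through tables ranked on these arrays. Set against the distal DA, *des* was 2.37-fold higher in the proximal DA (log2 difference 1.25, SE 0.16, 95% interval 0.87 to 1.62, limma adjusted p = 0.0425). Both of its proximal DA arrays lay above both distal DA arrays, as they did for 14.7% of all probe sets. Of all probe sets, 0.159% were called higher and 0.0913% lower. At an unadjusted p under 0.05, 4 of the 7 genes were higher and 1 lower, and 3 higher and 1 lower without *des*, against 3.95% and 3.36% of all probe sets. The call of *des* was lost without any 1 of the proximal and distal DA arrays (adjusted p = 0.100 with proximal DA replicate 1 left out, 0.194 without proximal DA replicate 2, 0.279 without distal DA replicate 1 and 0.270 without distal DA replicate 2).

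*tagln* differed between the proximal and the distal DA by 1.03 (95% interval 0.59 to 1.47, limma adjusted p = 0.112), *acta1* by 0.63 (0.24 to 1.01, adjusted p = 0.287) and *tpm1* by 0.58 (0.26 to 0.89, adjusted p = 0.223). The arrays of these 3 genes did not overlap between the parts, yet none passed the adjustment, and 14.7% of all probe sets had both proximal DA arrays above both distal DA arrays and 18% had them below. *myh11* (-0.025, 95% interval -0.36 to 0.31), *synpo2* (-0.015, -0.35 to 0.32) and the shared *acta2* and *actg2* probe set (0.12, -0.27 to 0.51) did not pass either, each with an adjusted p of 0.997, and their arrays overlapped. *mylk* ran the other way, with a difference of -0.48 (95% interval -0.81 to -0.15, adjusted p = 0.360). The median difference was 0.58 over the 7 genes, 0.28 without *des*, -0.015 without *des* and *tagln*, and -0.02 over all probe sets.

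The wider contractile machinery was read from lists that leave out the 10 genes. Each count of these lists stands beside the shares of all probe sets given above, which for calls higher and lower were 3.33% and 2.34% for the proximal DA, 0.952% and 0.644% for the distal DA, and 0.159% and 0.0913% between the parts. Of 9 other thin filament genes, 8 were not called against the aorta in either part of the DA, 0 were called lower, and 1 was called higher in both. This was *actg2*, on a probe set of its own, with a difference of 1.58 (SE 0.14, limma adjusted p = 0.00144) for the proximal DA and 1.17 (SE 0.14, adjusted p = 0.0128) for the distal DA, where the call was lost without distal DA replicate 1 (0.112) or distal DA replicate 2 (0.113). *actg2* is also named on the probe set shared with *acta2*, so it is not wholly separate from the genes above. The medians of the list were 0.17 and 0.22. Between the parts of the DA 0 thin filament genes were called. *actg2* (0.41, adjusted p = 0.520) and *tmod2*, which caps the pointed end of actin filaments (-0.36, adjusted p = 0.705), had the smallest p in that comparison, in which 1 gene was higher and 0 lower at an unadjusted p under 0.05.

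Of 24 other genes of the thick filament and of light chain regulation, 4 were called higher for the proximal DA than for the aorta and 1 lower, with a median difference of 0.21. *myl9*, the regulatory light chain of smooth muscle myosin, had 11.22 and 11.27 on the proximal DA arrays, 9.99 and 10.60 on those of the distal DA, and 8.47 and 9.45 on the aorta arrays. The aorta arrays lay far apart, and both stayed below every DA array. Its difference was 2.29 in the proximal DA (SE 0.33, limma adjusted p = 0.00840) and 1.34 in the distal DA (SE 0.33, adjusted p = 0.127). The other genes called higher in the proximal DA were *ppp1r14c* (1.94, adjusted p = 0.00757), an inhibitor of myosin phosphatase, *ppp1r12b* (0.78, adjusted p = 0.0170), a targeting subunit of that phosphatase, and *myh9* (0.69, adjusted p = 0.0317), a nonmuscle myosin heavy chain. *arhgef1*, an activator of RhoA, was lower (-0.97, adjusted p = 0.0158). The higher calls numbered 1 without proximal DA replicate 2, and 2 when the array left out was proximal DA replicate 1, aorta replicate 1 or aorta replicate 2.

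Of these 5, *ppp1r14c* alone kept its call whichever array was left out. *myl9* lost it without proximal DA replicate 1 (limma adjusted p = 0.0632) or proximal DA replicate 2 (0.0766). *arhgef1* lost it without aorta replicate 2 (0.0694) or proximal DA replicate 2 (0.0977). *ppp1r12b* lost it without any 1 of the proximal DA and aorta arrays (0.0586 to 0.0754), and *myh9* without any 1 of the 6 arrays (0.0742 to 0.129). In the distal DA 0 genes of this list were called (8 higher and 1 lower at an unadjusted p under 0.05), with *ppp1r14c* (1.44, adjusted p = 0.0535) and *ppp1r12b* (0.68, adjusted p = 0.0646) closest. Between the parts of the DA 0 were called (unadjusted, 1 higher and 0 lower). *myl9* had a difference of 0.95 there (adjusted p = 0.488), and *myl12b*, a further regulatory light chain, -0.33 (adjusted p = 0.769).

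Of 33 genes of dense plaques and anchoring, 16 were called higher and 1 lower against the aorta in the proximal DA (median 0.86), and 7 higher and 0 lower in the distal DA (median 0.66). *fhl2*, a LIM domain protein, had 8.39 and 8.56 on the proximal DA arrays, 8.41 and 8.46 on those of the distal DA, and 6.49 and 6.74 on the aorta arrays, and its difference from the aorta was 1.86 for the proximal DA (SE 0.15, limma adjusted p = 0.00104) and 1.82 for the distal DA (SE 0.15, adjusted p = 0.00316). *fhl2* also stands in the published ranking of distal DA to aorta ratios on these same arrays. *csrp1* differed by 1.82 (adjusted p = 0.000956) for the proximal DA and 1.31 (adjusted p = 0.00881) for the distal DA. For *pdlim5* the proximal difference was 1.77 (adjusted p = 0.00151) and the distal difference 1.53 (adjusted p = 0.00743). For *sorbs2*, an adaptor at adhesion sites, the proximal difference was 1.66 (adjusted p = 0.00183) and the distal difference 1.85 (adjusted p = 0.00363).

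*hspb1*, a small heat shock protein that binds actin, had the largest difference of this list in the proximal DA, 2.70 (SE 0.41, limma adjusted p = 0.0108), and its arrays spread widely, with 10.44 and 10.82 on the proximal DA arrays, 9.09 and 10.18 on those of the distal DA, and 7.45 and 8.42 on the aorta arrays. Its call was lost without proximal DA replicate 1 (0.0615) or proximal DA replicate 2 (0.0978). The actin crosslinker *actn4* was higher in the proximal DA (1.54, adjusted p = 0.00134) and just missed a call in the distal DA (0.74, adjusted p = 0.0504). *csrp2* and *pdlim3* were called in both parts. *csrp2* differed by 1.36 (adjusted p = 0.00573) for the proximal DA and 1.27 (adjusted p = 0.0189) for the distal DA. For *pdlim3* the proximal difference was 1.25 (adjusted p = 0.00264) and the distal difference 1.0 (adjusted p = 0.0176). Without proximal DA replicate 2, the list had 8 genes called higher in the proximal DA. For the distal DA it had 4 without aorta replicate 1 and 2 without either distal DA array. *csrp1* and *pdlim5* lost the distal call without either distal DA array, with adjusted p between 0.0557 and 0.0935, *csrp2* also without aorta replicate 1 and *pdlim3* without any 1 of the distal DA and aorta arrays (0.0583 to 0.161 for both genes). The gene called lower in the proximal DA was *ablim1*, an actin-binding LIM protein (-0.77, adjusted p = 0.0460), named after its values were seen. With 1 array left out it kept the call only without aorta replicate 2, and it was not called under repeated quantile or cyclic loess scaling or in a fit of only the tissues compared (0.0660 to 0.0874). Between the parts of the DA 0 genes were called (unadjusted, 7 higher and 1 lower), and *fhl3* (1.17, adjusted p = 0.0680) and *actn4* (0.80, adjusted p = 0.0843) came closest.

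**Figure D3:**
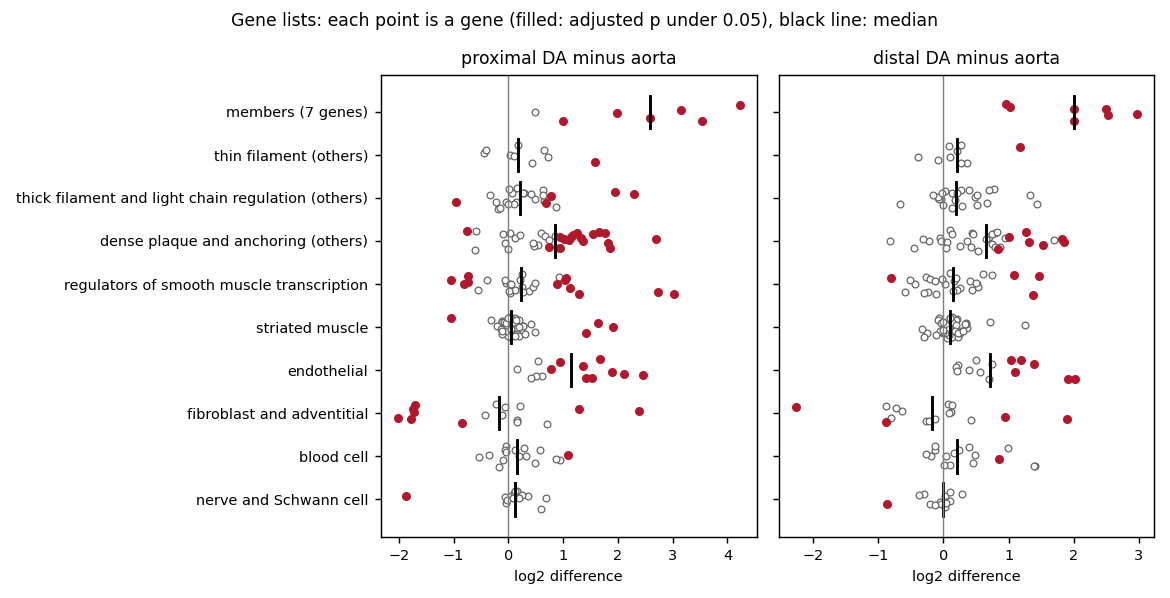
Log2 difference from the aorta (horizontal axis) in the proximal DA, left, and the distal DA, right, for the 7 contractile genes and 9 gene lists; each point is 1 gene, filled at an adjusted p under 0.05, and the black line is the median of the list. The medians of the 7 genes are 2.59 and 2.01, and 1.985 and 2.0 without *des* and *tagln*. The highest median of a list is that of the endothelial genes, at 1.15 and 0.72. The 7 genes were chosen with earlier results of these data known, and the lists leave them out, so this contrast is a description only.

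Regulators of smooth muscle transcription moved in both directions. *myocd*, the coactivator that switches on contractile genes in smooth muscle, had 10.47 and 10.79 on the proximal DA arrays, 10.42 and 10.45 on those of the distal DA, and 9.41 and 9.29 on the aorta arrays. It was higher by 1.28 (SE 0.16, limma adjusted p = 0.00466) for the proximal DA and by 1.09 (SE 0.16, adjusted p = 0.0217) for the distal DA. *srf*, the factor that myocardin binds, had 10.95 and 10.75 on the proximal DA arrays, 10.29 and 10.78 on those of the distal DA, and 9.56 and 10.02 on the aorta arrays. Its difference was 1.06 (SE 0.22, adjusted p = 0.0382) for the proximal DA and 0.75 (SE 0.22, adjusted p = 0.230) for the distal DA. *mef2c*, a myogenic transcription factor, was higher in the proximal DA by 1.13 (SE 0.16, adjusted p = 0.00757). Its difference of 0.60 in the distal DA was not called (adjusted p = 0.155). *klf5*, a factor of immature and dividing smooth muscle, differed from the aorta by 0.24 in the proximal DA (adjusted p = 0.699) and by 0.03 in the distal DA (adjusted p = 0.989), and no probe set was named *klf4*.

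*foxf1*, a transcription factor of visceral and vascular mesenchyme, had 9.22 and 9.29 on the proximal DA arrays, 7.78 and 7.63 on those of the distal DA, and 6.23 and 6.25 on the aorta arrays. It rose by 3.02 (SE 0.14, limma adjusted p = 0.000159) for the proximal DA and by 1.47 (SE 0.14, adjusted p = 0.00461) for the distal DA. *ankrd1*, a stretch-responsive cofactor of muscle, had 8.45 and 8.67 on the proximal DA arrays, 7.35 and 7.05 on those of the distal DA, and 5.91 and 5.73 on the aorta arrays. It rose by 2.74 (SE 0.17, adjusted p = 0.000413) for the proximal DA and by 1.38 (SE 0.17, adjusted p = 0.0127) for the distal DA. Both were also called between the parts of the DA, *foxf1* at 1.55 (adjusted p = 0.0238) and *ankrd1* at 1.36 (adjusted p = 0.0395). Both genes stand in the published ranking of proximal DA to aorta ratios on these same arrays, so these values are no independent support. *hey1*, a repressor downstream of Notch, was lower in the proximal DA (-1.05, SE 0.14, adjusted p = 0.00655), with 9.34 and 9.23 on the proximal DA arrays, 9.89 and 9.90 on those of the distal DA, and 10.42 and 10.25 on the aorta arrays. In the distal DA the difference of *hey1* was -0.44 and not called (adjusted p = 0.269). *tbx20*, a T-box factor of the heart, was lower in the distal DA (-0.80, SE 0.13, adjusted p = 0.0364) and in the proximal DA (-0.73, adjusted p = 0.0222).

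In all, 7 of 28 regulators were called higher and 4 lower against the aorta in the proximal DA (median 0.23), 3 higher and 1 lower in the distal DA (median 0.15), and 2 higher and 0 lower between the parts of the DA. Several of these calls were lost in some fits with 1 array left out, which have fewer arrays to estimate the spread. In the proximal DA the count of higher calls was 4 without proximal DA replicate 2, and the lower calls numbered 0 without that array and 1 or 2 without any other. *srf* was lost without aorta replicate 1 (limma adjusted p = 0.117), proximal DA replicate 1 (0.185) or proximal DA replicate 2 (0.124), and *hey1* without proximal DA replicate 2 (0.0508). In the distal DA the higher calls numbered 0 without distal DA replicate 1 and 1 without distal DA replicate 2. *myocd* was lost there without any 1 of the distal DA and aorta arrays (0.0534 to 0.164), *ankrd1* without either distal DA array (0.111 and 0.0542), *foxf1* without distal DA replicate 1 (0.0585) and *tbx20* without any 1 of the 6 arrays (0.0679 to 0.265). Between the parts, *foxf1* (0.0852 to 0.185) and *ankrd1* (0.129 to 0.334) were lost without any 1 of the proximal and distal DA arrays.

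**Figure D4:**
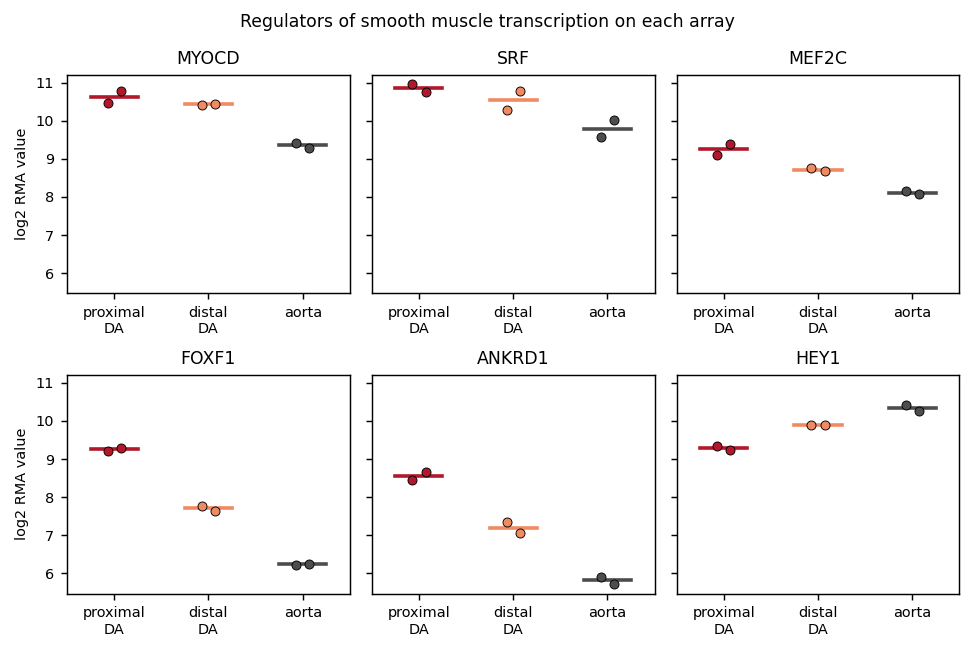
Log2 RMA value (vertical axis) of 6 regulators of smooth muscle transcription by tissue; each point is 1 array and each bar the mean of 2. *foxf1* and *ankrd1* step down across the proximal DA, distal DA and aorta, *myocd* lies at 10.42 or above on all DA arrays and at 9.41 or below in the aorta, and *hey1* is highest in the aorta.

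Genes of striated muscle and of other cell types in the wall were read beside the contractile genes. Of 44 genes of striated muscle, 3 were called higher for the proximal DA than for the aorta and 1 lower, against 3.33% and 2.34% of all probe sets, and 0 for the distal DA (unadjusted, 3 higher and 0 lower). The median differences were 0.04 and 0.10, and 14 of the 44 were below the lower quartile of every array, among them *actn2* and *ttn*, which define the sarcomere. The called genes were *myl4*, an embryonic and atrial light chain (1.91, limma adjusted p = 0.00102), *hspb7* (1.64, adjusted p = 0.0116) and *myh15* (1.41, adjusted p = 0.00408) on the higher side and *nebl* (-1.05, adjusted p = 0.0445) on the lower. These were named after their values were seen. *nebl* also stands in the published ranking of low proximal to distal DA ratios on these same arrays. Between the parts of the DA its difference was -1.39 (limma adjusted p = 0.0805). For the distal DA against the aorta it was 0.34. *nebl* lost its call without any 1 of the proximal and distal DA arrays or aorta replicate 1, and under repeated quantile or cyclic loess scaling or in a fit of only the tissues compared (0.0574 to 0.0753), and *hspb7* without either proximal DA array (0.0776 and 0.0838). Between the parts of the DA 1 was called, *myl4* (1.20, adjusted p = 0.0447), against 0.159% of all probe sets called higher and 0.0913% lower. This call was lost without any 1 of the proximal and distal DA arrays and under repeated quantile scaling (0.0617). The summed linear signal of the striated list was 5410 to 5549 on the proximal DA arrays, 4308 to 4476 on those of the distal DA and 3410 to 3506 on the aorta arrays. Bright genes weigh most in such a sum. The brightest was *myl4*, with 10.90 and 11.10 on the proximal DA arrays, 9.89 and 9.72 on those of the distal DA, and 9.19 and 8.99 on the aorta arrays. With medians of 0.04 and 0.10, the sum does not speak for the list as a whole. The part of striated muscle genes in the contractile differences was not tested.

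Of all probe sets, 3.33% were called higher and 2.34% lower for the proximal DA, and 0.952% and 0.644% for the distal DA. Between the parts of the DA these shares were 0.159% and 0.0913%. Each count of the lists below stands beside these shares. Of 14 endothelial genes, 9 were called higher for the proximal DA and 6 for the distal DA, 5 and 8 were not called, 0 were called lower, and the medians were 1.15 and 0.72. The distal count was 3 without aorta replicate 2, 2 without distal DA replicate 1 and 1 without distal DA replicate 2. Between the parts of the DA 0 were called (unadjusted, 7 higher and 0 lower). Their summed linear signal was 7979 and 8565 on the proximal DA arrays, 6855 and 6542 on those of the distal DA, and 3686 and 3621 on the aorta arrays. *vwf*, the von Willebrand factor of endothelium, named after its values were seen, had 8.44 and 8.94 on the proximal DA arrays, 8.08 and 8.20 on those of the distal DA, and 6.24 and 6.21 on the aorta arrays, and its distal call was lost without distal DA replicate 2 (limma adjusted p = 0.0504). *vwf* and *kdr*, another called gene of this list, also stand in the published ranking of distal DA to aorta ratios on these same arrays. None of the 14 genes lay below the lower quartile of every array. Of 16 fibroblast and adventitial genes, 2 were called higher and 6 lower for the proximal DA, and 2 higher and 2 lower for the distal DA. The higher genes were *pi16* (2.39 for the proximal DA and 1.90 for the distal DA) and *serpinf1* (1.28 for the proximal DA and 0.95 for the distal DA). Both parts of the DA were lower than the aorta in *postn*, the matrix protein periostin (-1.74 for the proximal DA and -2.27 for the distal DA), and *fbln1*, the matrix protein fibulin (-2.02 for the proximal DA and -0.89 for the distal DA), and all 4 genes were named after their values were seen. *postn* also stands in the published ranking of low distal DA to aorta ratios on these same arrays. In a fit of only the tissues compared, the distal calls of *serpinf1* (0.0586) and *fbln1* (0.0561) were lost. Neither was kept whichever array was left out. In those fits the distal difference lay between 0.825 and 1.065 for *serpinf1* and between -0.965 and -0.805 for *fbln1*. *postn* lost the proximal call without proximal DA replicate 1 (0.0754) and the distal call without distal DA replicate 1 (0.0767). The distal calls of this list numbered 1 higher whichever array was left out, and 1 lower except for 0 without distal DA replicate 1 and 2 where aorta replicate 2 was left out. Between the parts of the DA 1 gene was called, *fbln1* (-1.14, adjusted p = 0.0395), and lost without any 1 of the proximal and distal DA arrays or under cyclic loess scaling (0.0505). The summed signal of the fibroblast and adventitial list was 47188 and 43006 on the proximal DA arrays, 46990 and 47892 on those of the distal DA, and 52860 and 48147 on the aorta arrays. Bright genes weigh most in it too, such as *col1a1*, with 13.49 to 13.77 on the 6 arrays. Of 16 blood cell genes, 1 was called higher in each part of the DA, *cd74* for the proximal DA (1.09) and *slc4a1* for the distal DA (0.85). The summed signal of this list was 3974 and 6698 on the proximal DA arrays, 5066 and 5897 on those of the distal DA, and 2743 and 3401 on the aorta arrays. It leans on a few bright genes, among them the globin *hba1*, with 9.65 and 11.21 on the proximal DA arrays, 10.55 and 11.24 on those of the distal DA, and 8.90 and 10.08 on the aorta arrays. *hba1* was not called in either part, and the medians of the list were 0.155 and 0.2. Of 14 nerve and Schwann cell genes, 1 was called lower in each part, *ncam1* (-1.87 for the proximal DA and -0.87 for the distal DA). Their sums were 8194 and 7512 on the proximal DA arrays, 8450 and 7447 on those of the distal DA, and 9664 and 8859 on the aorta arrays. These sums mostly follow the bright genes *pmp22*, with 12.29 to 12.63 on the 6 arrays, and *ncam1*. Differences from the aorta were positive for 10 of the 14 genes in the proximal DA (median 0.12) and for 7 in the distal DA (median -0.0075). These blood and nerve genes were named after their values were seen. Single calls in lists of this size are not read as a result about the list. The distal calls of *slc4a1* and *ncam1* were lost whichever array was left out, under repeated quantile scaling (0.0597 for *slc4a1*, 0.0508 for *ncam1*) and in a fit of only the tissues compared (0.0594 and 0.0614). The proximal call of *cd74* was lost without aorta replicate 2 or either proximal DA array. The part of these cells in the contractile differences was not tested.

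The contractile genes shared a profile over the 6 arrays. Centred on its own mean, the average of the 7 genes was 0.86 and 1.04 on the proximal DA arrays, 0.48 and 0.57 on those of the distal DA, and -1.47 and -1.48 on the aorta arrays. Pearson's r of a gene with the average of the other 6 was 0.996 for *acta1*, 0.995 for *tpm1*, 0.986 for *des*, 0.984 for *tagln*, 0.980 for *synpo2* and 0.976 for *myh11*, and 0.747 for *mylk*. These values describe 6 arrays of 3 tissues and mostly reflect the distance of the DA arrays from the aorta arrays.

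Among 580 probe sets with 1 symbol that spanned at least 1 log2 unit and stood outside the muscle lists, the 10 most like this profile were *myo1c* (r = 0.998), *podn* (0.998), *gpr20* (0.998), *adipoq* (0.997), *sfrp2* (0.997), *fam13c* (0.997), *mir1653* (0.997), *casz1* (0.996), *msrb3* (0.996) and *pde3a* (0.996). *gpr20*, an orphan receptor, had 9.56 and 10.07 on the proximal DA arrays, 9.15 and 9.06 on those of the distal DA, and 6.32 and 6.25 on the aorta arrays. *fam13c* had 8.76 and 9.41 on the proximal DA arrays, 8.55 and 8.51 on those of the distal DA, and 5.46 and 5.29 on the aorta arrays. These were the widest spans of the 10. Both *gpr20* and *fam13c* stand in the published rankings of DA to aorta ratios on these same arrays, so their values are no independent support. As with the members, these r values mostly reflect the distance of the DA arrays from the aorta arrays. *adipoq*, the hormone adiponectin, had 11.43 and 11.53 on the proximal DA arrays, 10.77 and 10.90 on those of the distal DA, and 8.67 and 8.77 on the aorta arrays. *sfrp2*, a secreted modulator of Wnt signals, had 9.17 and 9.23 on the proximal DA arrays, 8.77 and 8.74 on those of the distal DA, and 7.19 and 7.05 on the aorta arrays. *pde3a*, a phosphodiesterase of cyclic nucleotides, had 10.73 and 10.95 on the proximal DA arrays, 10.62 and 10.63 on those of the distal DA, and 9.66 and 9.73 on the aorta arrays. In the RefSeq annotation the gene of *mir1653* lies inside *lpp*, a member of the dense plaque list, and signal of the miRNA gene and its host cannot be told apart.

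**Figure D5:**
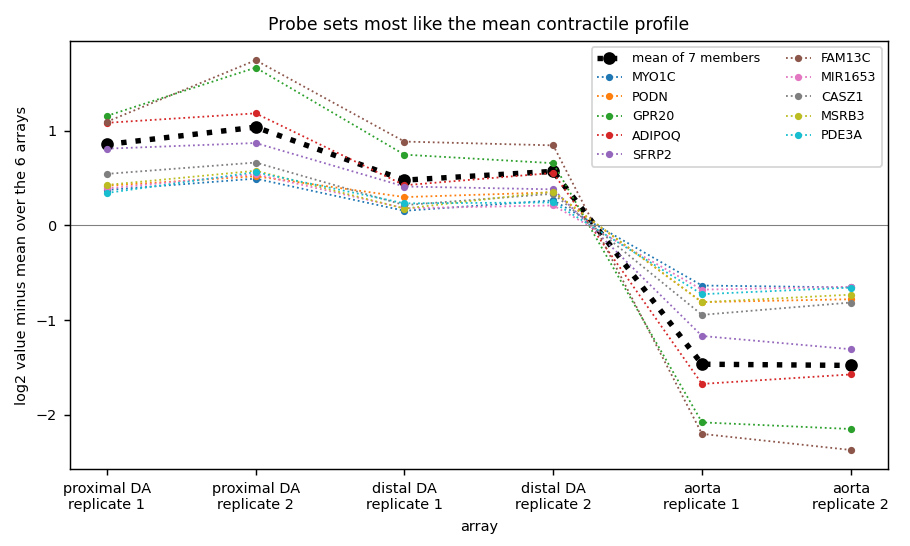
Log2 value minus the mean over the 6 arrays (vertical axis) on each array (horizontal axis) for the average of the 7 contractile genes, in black, and the 10 probe sets most like it. The dotted lines only join the points of a probe set, since replicates have no order; all 11 profiles lie above 0 on the 4 DA arrays and below 0 on the 2 aorta arrays.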

How the data were processed

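Labelled targets from 100 ng of total RNA were run on Affymetrix Chicken Gene ST arrays, in duplicate per tissue. The authors deposited log2 values from RMA, that is after background correction, quantile scaling of the arrays and a summary of the probes in each probe set. Only relative changes can be read after such scaling. No probe set was filtered out. No genome build is given in the sources used here.

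A single limma fit held the 3 tissues (R 4.3.3, limma 3.58.1, 3 residual and 4.40 prior degrees of freedom), with adjustment over all 20804 probe sets within a comparison. The median SE of a difference was 0.168, and 2 arrays per tissue limit the precision. Simulated data with 200 changed probe sets were used to test the fit.

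Of the probe sets, 12300 had 1 symbol, 256 several and 8248 none, and 11727 single symbols matched RefSeq. A gene was read at its brightest probe set. The members and lists were chosen with earlier results of these data known. All members were named, and in each of the 4 contractile and regulator lists up to 6 called genes of the largest difference or, where none was called, the pair with the smallest p, with *myocd*, *srf*, *klf4* and *klf5*. Alternatives included a fit of only the tissues compared, a trended robust prior, repeated quantile or cyclic loess scaling, only the brighter 0.5 of probe sets, a minimum difference of 1, gene medians, each array left out and replicate numbers as a block. The other 5 lists are given as counts, with genes named after their values were seen. Counts of the wider lists, and their other called genes, under these settings were added after seeing the data. A motif search in promoters was planned and not run, since no promoter sequence was used here.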

Additional observations from a re-analysis of the deposited data

Results flagged for a closer look

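For 5 genes the difference from the aorta was not the same in the proximal and the distal DA, by limma's test of that difference itself. Of all probe sets, 0.159% were called higher and 0.0913% lower between the parts. *des* was higher in the proximal DA by 1.25 (adjusted p = 0.0425) and *foxf1* by 1.55 (adjusted p = 0.0238). *ankrd1* was higher by 1.36 (adjusted p = 0.0395) and *myl4*, a light chain on the striated muscle list, by 1.2 (adjusted p = 0.0447). For each of these both proximal DA arrays lay above both distal DA arrays, as they did for 14.7% of all probe sets. For *fbln1*, a matrix protein, the difference was -1.14 (adjusted p = 0.0395). *des* was chosen through tables made from these arrays, which also hold *foxf1* and *ankrd1*. *myl4* and *fbln1* were named after their values were seen. All 5 calls were lost without any 1 of the proximal and distal DA arrays.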

How the results depend on the processing

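Against the aorta, the count of the 7 genes called higher was 6 for the proximal DA and 7 for the distal DA in each fit of all 6 arrays, except for 5 and 6 where a difference of at least 1 log2 unit was required. With 1 array left out it ranged between 5 and 6 and between 5 and 7. Between the proximal and distal DA it was 1 in those fits, 0 with replicate numbers as a block, and between 0 and 1 with 1 array left out. The remaining array of a tissue is then assumed to vary like the other groups. The difference of *myh11* between the parts turned sign under cyclic loess (0.0164). With 1 array left out it ranged between -0.11 and 0.06, that of *synpo2* between -0.12 and 0.09, and that of *klf5* between -0.045 and 0.47, with *klf5* between -0.23 and 0.29 for the distal DA against the aorta. None of these was called.

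Replicate numbers shared across tissues do not mark a shared pool in the labels, and replicate 1 deviations correlated at 0.321 for the proximal and distal DA, 0.199 for the distal DA and aorta and -0.034 for the proximal DA and aorta. Under the block, 6 and 7 of the genes were called against the aorta. Between the parts, *des* (adjusted p = 0.0735), *foxf1* (0.0618), *ankrd1* (0.0811), *myl4* (0.0874) and *fbln1* (0.0680) were not called, and 0 of all probe sets were, against 33 higher and 19 lower without the block. With the brighter 0.5 of the probe sets these were 61 and 46, and the lower count was 34 under eBayes with trend and robust. In the dense plaque list, 12 genes were called higher in the distal DA with the brighter 0.5 of the probe sets, against 7. In the proximal DA, 692 probe sets were higher and 486 lower than in the aorta, and 431 and 258 with a difference of at least 1. With 1 array left out, the counts higher and lower ranged between 261 and 530 and between 191 and 597 in the proximal DA, against 198 higher and 134 lower with all arrays and ranges of 36 to 145 and 16 to 141 in the distal DA. In the fit of only the tissues compared, *myh9* (0.0772), *ablim1* (0.0874), *nebl* (0.0574), *gata6* (0.0687), *setd7* (0.0617) and *tbx20* (0.0601) were not called for the proximal DA, nor *tbx20* (0.0679), *serpinf1* (0.0586), *fbln1* (0.0561), *slc4a1* (0.0594) and *ncam1* (0.0614) for the distal DA. *ablim1*, *nebl* and *slc4a1* were also not called under repeated quantile and cyclic loess scaling, and *ncam1* and *myl4* under repeated quantile scaling. *ppp1r14c* was called for the distal DA in the fit of only the tissues compared (0.0395). With the brighter 0.5 of the probe sets, *ppp1r14c* (0.0235) and *ppp1r12b* (0.0327) were called in the distal DA, and *fhl3* (0.0303) and *actn4* (0.0407) between the parts. The cause was not tested.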

Other observations

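Further regulators were called in the proximal DA and are named here after their values were seen. *prrx1*, a homeobox factor of mesenchyme, was higher than in the aorta by 1.04 (limma adjusted p = 0.00840) and *mef2d* by 0.89 (adjusted p = 0.0197). *gata6*, a zinc finger factor of smooth muscle, was lower by 0.74 on the log2 scale (difference -0.74, adjusted p = 0.0276), *setd7* by a difference of -0.82 (adjusted p = 0.0289) and *tbx20* by -0.73 (adjusted p = 0.0222). In the distal DA *prrx1* had a difference of 0.21 (adjusted p = 0.742), *mef2d* 0.52 (adjusted p = 0.245) and *gata6* -0.24 (adjusted p = 0.669). These proximal calls were lost in some fits with 1 array left out, which have fewer arrays to estimate the spread. The difference of *gata6* stayed between -0.835 and -0.645 in such fits, and that of *tbx20* between -0.785 and -0.675. *prrx1* was lost without proximal DA replicate 2 (0.0631), *mef2d* without any 1 of the proximal DA and aorta arrays (0.0549 to 0.110), *setd7* without any 1 array other than aorta replicate 1 (0.0617 to 0.134), and *gata6* (0.0568 to 0.116) and *tbx20* (0.0601 to 0.0983) without any 1 of the 6 arrays. *gata6*, *setd7* and *tbx20* were also not called in a fit of only the tissues compared.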
